A study of Homo sapiens with 3 samples.

Results

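The 10 genes described here belong to the BCL2 family, the proteins that decide whether the outer mitochondrial membrane stays intact when a cell is under stress. They were taken by name, 4 antiapoptotic members (BCL2, BCL2L1, MCL1 and BCL2A1) and 6 proapoptotic members (BCL2L11, BAX, BAK1, BBC3, PMAIP1 and BID), out of 20037 protein-coding genes on the main chromosomes in RefSeq GRCh38.p14. Each gene was given a window, its RefSeq span plus 50 kb on each side, and all 10 windows together held 24 of the 11100 H3K4me3 peaks and 132 of the 62087 H3K4me1 peaks of the series. The data came from ALL-SIL, a long-established line grown from a human T-cell acute lymphoblastic leukaemia, in which TLX1 is rearranged and NUP214 is fused to ABL1; the labels name no treatment. Chromatin was immunoprecipitated for H3K4me1 or for H3K4me3, with 1 library each and input DNA as the shared control. No value therefore has a replicate error, no test was possible between members or marks, and all differences below are descriptions of these libraries in this cell line.

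H3K4me3 is the histone mark of active or poised promoters, and H3K4me1 marks enhancers and the shoulders of promoters. In the BCL2 family, BAX and BAK1 form the pores that release cytochrome c from mitochondria. The antiapoptotic proteins hold them back, and the BH3-only proteins (here BCL2L11, BBC3, PMAIP1 and BID) either block the antiapoptotic proteins or activate the pore formers. T cells and T-cell leukaemias are known to depend on BCL2, BCL2L1 or MCL1 for survival, to different degrees at different stages of development.

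The lineage label was checked first. H3K4me3 was within 1 kb of the start of 8 of 8 T-lineage markers (CD3D, CD3E, CD3G, CD7, BCL11B, LCK, TCF7 and GATA3) and of TLX1, against 1 of 5 B-lineage markers (CD79B, 0.355 kb), 0 of 5 myeloid markers and 0 of 4 erythroid markers. H3K4me1 did not separate the T and B lists in this way: it was at the start of 6 of 8 T-lineage, 4 of 5 B-lineage, 1 of 5 myeloid and 0 of 4 erythroid markers. Among the T-lineage markers, the adjacent genes CD3D and CD3G shared 1 H3K4me3 domain of 7.16 kb. The background over all protein-coding genes was 50.4% with H3K4me3 and 40.5% with H3K4me1 within 1 kb of the start. A start was every site of the RefSeq promoter table, or either end of the span for the 4195 genes it did not list. Among the 15842 listed genes the shares were 53.5% and 40.9%. The H3K4me3 library held 30823016 filtered tags, the H3K4me1 library 34813455 and the input 18859011.

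The promoter sequences are shown first, since they lie under, beside or outside the H3K4me3 peaks described next. Of the 10 members 9 matched the RefSeq promoter table, all but MCL1, with 14 start sites in all. Printed here are the 250 bases before the start, 5′ to 3′ on the gene's strand (GRCh38.p14). First come BCL2 and PMAIP1, the antiapoptotic and the proapoptotic member with the longest H3K4me3 domain. BAX, the proapoptotic member with the shortest, follows, and then BCL2A1 and BBC3, with none at their only listed start. Capitals mark CG dinucleotides, which promoters of the CpG island class hold in large numbers.

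BCL2, chr18:63319770-63320019, minus strand: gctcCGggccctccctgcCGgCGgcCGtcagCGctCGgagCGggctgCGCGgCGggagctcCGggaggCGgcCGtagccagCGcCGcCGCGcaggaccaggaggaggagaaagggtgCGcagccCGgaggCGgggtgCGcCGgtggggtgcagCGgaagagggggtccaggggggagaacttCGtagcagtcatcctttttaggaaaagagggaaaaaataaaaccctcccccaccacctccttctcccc
PMAIP1, chr18:59899746-59899995, plus strand: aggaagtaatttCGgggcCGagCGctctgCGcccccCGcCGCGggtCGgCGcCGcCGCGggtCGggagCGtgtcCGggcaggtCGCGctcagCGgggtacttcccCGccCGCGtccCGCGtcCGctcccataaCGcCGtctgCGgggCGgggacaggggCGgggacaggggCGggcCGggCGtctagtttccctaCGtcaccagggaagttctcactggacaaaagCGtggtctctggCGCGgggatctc
BAX, chr19:48954625-48954874, plus strand: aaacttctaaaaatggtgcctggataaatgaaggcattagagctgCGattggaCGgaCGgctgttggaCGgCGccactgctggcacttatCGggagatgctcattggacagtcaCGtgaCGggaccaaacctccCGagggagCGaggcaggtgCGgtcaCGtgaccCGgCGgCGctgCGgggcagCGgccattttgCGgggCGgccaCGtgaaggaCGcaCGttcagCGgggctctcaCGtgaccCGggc
BCL2A1, chr15:79971197-79971446, minus strand: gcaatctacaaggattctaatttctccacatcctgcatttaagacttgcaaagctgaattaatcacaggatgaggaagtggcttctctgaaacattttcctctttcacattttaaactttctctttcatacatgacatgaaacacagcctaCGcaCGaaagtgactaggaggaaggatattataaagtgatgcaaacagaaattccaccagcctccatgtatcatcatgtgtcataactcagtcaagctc
BBC3, chr19:47232668-47232917, minus strand: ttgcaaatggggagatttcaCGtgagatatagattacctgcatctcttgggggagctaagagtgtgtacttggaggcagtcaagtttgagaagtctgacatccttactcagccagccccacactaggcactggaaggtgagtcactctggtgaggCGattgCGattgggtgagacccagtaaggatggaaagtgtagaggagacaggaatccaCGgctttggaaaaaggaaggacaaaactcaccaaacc

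Whether H3K4me3 marked the start of each member was asked next. It did at 8 of the 10 members, 3 of 4 antiapoptotic and 5 of 6 proapoptotic, against 50.4% of all protein-coding genes. The exceptions were BCL2A1, an antiapoptotic gene best known in myeloid and activated lymphoid cells, and BBC3, which encodes PUMA, a BH3-only protein. H3K4me1 was within 1 kb of the start of 7 members, 2 of 4 antiapoptotic and 5 of 6 proapoptotic, against 40.5% of all protein-coding genes. At MCL1, for which either end of the span counted as the start, H3K4me1 lay at the end away from H3K4me3. The members without H3K4me1 there were BCL2, BCL2L1 and BCL2L11, whose H3K4me3 domains were among the 5 longest. With only the upper 50% of each list by fold kept, 6 members held H3K4me3 at the start (2 antiapoptotic, 4 proapoptotic). The BCL2L1 domain fell just short of that cut.

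Domains are H3K4me3 peaks merged across gaps of up to 1 kb, and at each of the 8 members the domain was a single deposited peak that reached no other protein-coding start. The antiapoptotic genes BCL2, BCL2L1 and MCL1 had long domains. BCL2, the founding member and the target of venetoclax, had 5.46 kb (chromosome 18, 63315407 to 63320870), with a fold over input of 4.85 and a −log10 q of 9.09. BCL2L1, which encodes BCL-XL, had 4.75 kb (chromosome 20, 31719287 to 31724035, fold 4.53, −log10 q 7.44). MCL1, a short-lived survival protein, had 3.76 kb (chromosome 1, 150576354 to 150580108, fold 6.18, −log10 q 15.1), across 1 end of its 5053-bp span. Fold and q are the authors' own scores, averaged over each region. These 3 genes lay at percentiles 99.3, 99.0 and 97.4 of all protein-coding genes in start domain length, or 98.6, 97.9 and 94.8 among the 10091 genes with a domain. Where several domains lay within 1 kb of a gene's starts, start domain length was their sum. For genes not listed in the promoter table, both ends of the span counted. All start domain percentiles, shares and medians given here use these lengths.

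The pore formers differed from each other. BAX had 854 bp (chromosome 19, 48954631 to 48955484), with a fold of 8.01 and a −log10 q of 24.9, the highest of both scores among the 8 members' domains. BAK1 had 1.89 kb (chromosome 6, 33578409 to 33580302, fold 4.60), with 0.026 kb of it before the start and 1.87 kb after. Among genes with a domain, BAX lay at percentile 11.4 in length and BAK1 at 64.1, so that BAX was shorter than most marked promoters and BAK1 was not.

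The BH3-only genes ranged from among the longest domains to none. PMAIP1, which encodes NOXA, the BH3-only partner of MCL1, had 4.27 kb (chromosome 18, 59899291 to 59903558, fold 4.14), of which 3.56 kb lay inside its 4310-bp span. BCL2L11, which encodes BIM, had 3.13 kb (chromosome 2, 111120367 to 111123500, fold 5.04). BID, which links death receptors to mitochondria, had 1.42 kb (chromosome 22, 17773043 to 17774458, fold 7.02), over 2 of its 5 listed starts and beside the other 3. BBC3 had no peak within 1 kb of its only listed start. A weak peak of 486 bp lay inside the gene, 1491 bp from that start (chromosome 19, 47230691 to 47231176, fold 2.87). Whether BBC3 has a further start at that peak was not examined. Counting 2.5 kb around the start brought the marked members to 9, with BBC3 added.

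A domain of at least 4 kb, a length reached by 2.08% of protein-coding genes, was found at BCL2, BCL2L1 and PMAIP1. MCL1 at 3.76 kb lay just below that length. The BID domain depended on the merging gap: with gaps of up to 3 kb merged it was 5.43 kb in place of 1.42 kb, longer than those of BCL2L1 and PMAIP1.

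**Figure D1:**
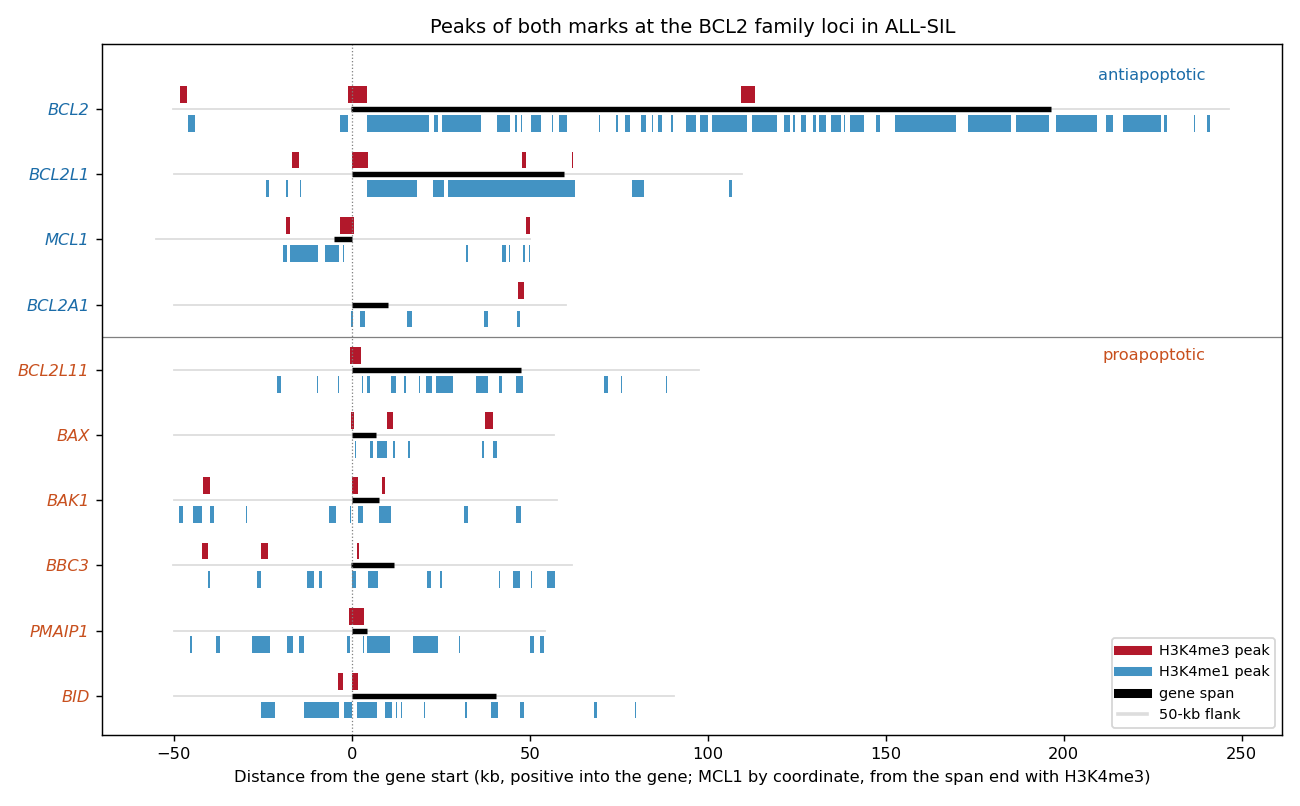
Peaks of H3K4me3 (red, above each line) and H3K4me1 (blue, below) at the 10 members, drawn by distance in kb from the gene start, with the gene span in black and the 50-kb flanks in grey. BCL2 and BCL2L1 carry H3K4me1 along most of the gene beyond their H3K4me3 domains, while peaks at BAX and BCL2A1 are few and short; MCL1 is drawn by coordinate, from the span end that holds H3K4me3.

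Start domain lengths of both sides overlapped. The median was 4.25 kb over the 4 antiapoptotic members (0 to 5.46 kb) and 1.66 kb over the 6 proapoptotic members (0 to 4.27 kb), a difference of 2.60 kb, with members without a domain counted as 0. Over all protein-coding genes the median was 0.257 kb, and over those with a domain it was 1.59 kb. Among members with a domain, the like comparison with marked genes, the medians were 4.75 kb on the antiapoptotic side and 1.89 kb on the proapoptotic side. The difference was 0.8825 kb once the other family genes named below were added to each side. It was 0.7425 kb in the upper 50% of the list by fold, where the domains of BCL2L1 and PMAIP1 were no longer kept. The BCL2L1 domain missed that cut narrowly, with a fold of 4.531 against the list median of 4.534.

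Over the whole window, H3K4me3 covered 11.3 kb at BCL2, 8.25 kb at BCL2L1, 6.02 kb at MCL1 and 1.79 kb at BCL2A1. At the proapoptotic members it covered 4.88 kb at BAX, 4.70 kb at BAK1, 4.27 kb at PMAIP1, 3.94 kb at BBC3, 3.13 kb at BCL2L11 and 2.63 kb at BID. The medians were 7.14 kb for antiapoptotic and 4.10 kb for proapoptotic members, with 2.00 kb over all protein-coding genes. BCL2, BCL2L1 and MCL1 were each above every proapoptotic member, and BCL2A1 was below every one.

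Part of this length belonged to neighbours. Of the 24 peaks, 8 lay at members' starts, 9 at starts of neighbouring protein-coding genes and 7 at neither. At BAX, 4.03 of the 4.88 kb lay at FTL and at the paired starts of GYS1 and RUVBL2, and at BBC3 3.45 kb lay at CCDC9 and INAFM1. The 1.79 kb of BCL2A1 lay entirely at ST20-MTHFS, whose start is 48.1 kb from that of BCL2A1. Counting only peaks at the members' own starts or in their spans, the medians were 4.82 kb for antiapoptotic members (0 to 9.18 kb) and 1.66 kb for proapoptotic members (0.486 to 4.27 kb). BCL2 had the most, since a further peak of 3.72 kb lay inside the gene, 109460 bp from its start (chromosome 18, 63206595 to 63210309). Its fold of 5.77 was higher than that of the BCL2 start domain, and 2062 bp of it were also under H3K4me1.

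**Figure D2:**
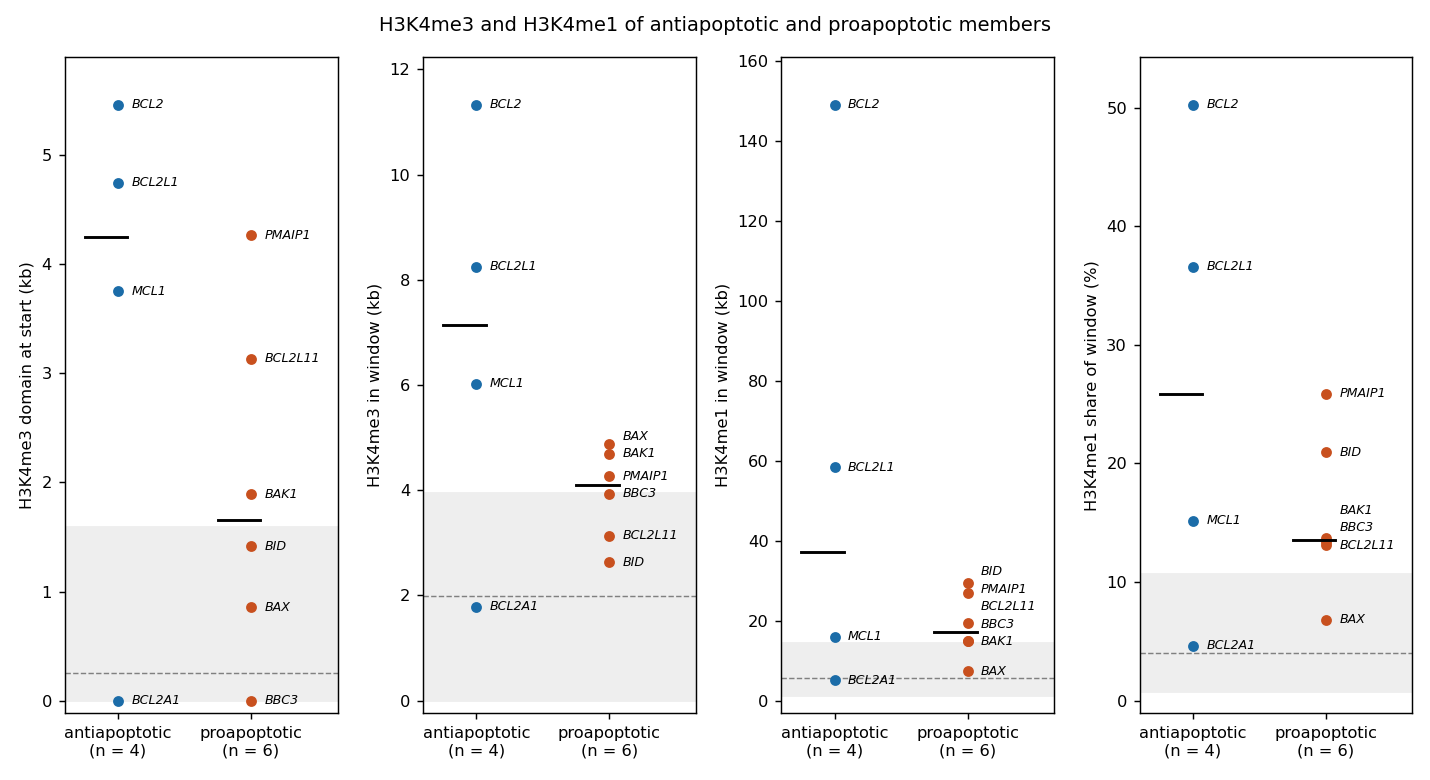
H3K4me3 domain length at the start (kb), H3K4me3-covered length of the window (kb), H3K4me1-covered length of the window (kb) and H3K4me1 share of the window (%) for the 4 antiapoptotic members (left) and the 6 proapoptotic members (right), 1 point per gene, with black bars for the medians; the dashed line and grey band are the median and quartiles of all protein-coding genes. BCL2 and BCL2L1 stand above all proapoptotic members in each panel, and BCL2A1 is the lowest or level with the lowest in each.

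H3K4me1 load was compared in the same windows. It was highest at BCL2, where 40 peaks covered 149 kb or 50.3% of the window (percentile 99.7 of all protein-coding genes), and next at BCL2L1, where 8 peaks covered 58.4 kb or 36.6% (percentile 98.3). MCL1 had 15.9 kb or 15.2%. BCL2A1 had 5.10 kb or 4.62%, close to the median of 3.98% over all protein-coding genes. The antiapoptotic side thus held the highest and the lowest of the 10 values in the full lists. This order depended on the peak threshold. With only peaks at a −log10 q of at least 3, 70.2 kb or 23.7% of the window was kept at BCL2 and 57.6 kb or 36.1% at BCL2L1, and BBC3 (0.561%) was below BCL2A1 (0.871%). With only as many H3K4me1 peaks as H3K4me3 peaks, the best by q, 19.4 kb or 6.53% was kept at BCL2, below 12.3% at MCL1, 10.8% at BCL2L1, 6.95% at BID and 6.57% at BCL2L11.

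Among proapoptotic members in the full list, PMAIP1 had the largest share, 25.9% of the window or 27.01 kb, and BID had the greatest length, 29.4 kb or 20.9%. BAK1 had 14.8 kb or 13.8%, BBC3 15.0 kb or 13.4% and BCL2L11 19.3 kb or 13.1%. BAX was lowest with 7.30 kb or 6.83%. Much of this was in weak peaks, and the order changed without them. Peaks with −log10 q of 3 or more covered 11.03% of the window at BID, 10.96% at BCL2L11, 6.40% at PMAIP1, 3.71% at BAK1, 0.995% at BAX and 0.561% at BBC3. With as many H3K4me1 as H3K4me3 peaks, BID (6.95%) and BCL2L11 (6.57%) were again above PMAIP1 (5.94%), and BAX, BAK1 and BBC3 kept none. In the full list all 10 members were above the median share of all protein-coding genes, and 8 of them, all but BAX and BCL2A1, were above its upper quartile of 10.7%. Genes with H3K4me3 at the start had a higher median of 6.92%, and BAX lay just below that.

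The medians were 37.2 kb or 25.9% of the window for antiapoptotic members and 17.2 kb or 13.6% for proapoptotic members, differences of 20.0 kb and 12.3 percentage points. Both differences rested on BCL2 and BCL2L1. Leaving out either 1 of them alone gave a difference of -1.25 kb in length and 1.58 points in share. Windows of 50 kb on each side of the start do not grow with the gene. For MCL1 this window was centred on the middle of its span. In these windows H3K4me1 covered 41.7% at BCL2L1, 38.2% at BCL2, 14.9% at MCL1 and 5.10% at BCL2A1. On the proapoptotic side it covered 28.1% at BID, 24.8% at PMAIP1 and 7.30% at BAX. The difference of medians was then 10.37 points. With only H3K4me1 peaks that touched no H3K4me3 peak, the differences were -2.70 kb and -1.89 points, since both long peaks of BCL2L1 touch one and that gene was left with 8.84 kb, and BCL2 with 113 kb.

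The place of H3K4me1 differed from gene to gene. At BCL2L1 84.9% of it lay inside the gene span, at BCL2 79.6% and at BCL2L11 79.4%. Inside these spans H3K4me1 covered 83.3% of BCL2L1, 60.3% of BCL2 and 32.3% of BCL2L11. At PMAIP1 1.23% of the H3K4me1 was in the gene span, with 10.9 kb upstream and 15.7 kb downstream of that short gene. BID had 16.0 kb upstream, 10.2 kb in the gene and 3.20 kb downstream. At BAX none lay upstream and 6.19 kb lay downstream. At MCL1 11.4 of 15.9 kb lay on the side of lower coordinates. The H3K4me1 lengths in the flanks were not divided between the members and neighbouring genes.

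The longest H3K4me1 peaks show the same. BCL2L1 held the longest of the 10 loci, 35.5 kb (chromosome 20, 31661319 to 31696824, fold 3.03). A second peak of 14.0 kb (31705534 to 31719570, fold 4.21) ran up to the start domain. Between them lay the peak of highest fold among the members' H3K4me1 peaks, 3.19 kb from 31698032 to 31701217 at a fold of 6.89. At BCL2 the longest peak, 17.4 kb (63298079 to 63315501, fold 2.41), adjoined the start domain on the gene side, and another of 17.1 kb lay 152682 bp from the start (63149959 to 63167087). BCL2 held 9 H3K4me1 peaks of at least 5 kb, PMAIP1 3, BCL2L1 and BID 2 each and MCL1 1, while BCL2A1, BCL2L11, BAX, BAK1 and BBC3 had none.

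At BCL2L11 the longest and strongest H3K4me1 peak, 4.65 kb at a fold of 5.39, lay inside the gene 23788 bp from the start (chromosome 2, 111144702 to 111149355). At BID a peak of 9.76 kb and fold 3.69 lay upstream, 3623 bp from the most upstream start (chromosome 22, 17778288 to 17788049). That peak overlapped the neighbouring genes LINC00528 and MICAL3. PMAIP1 had a peak of 5.07 kb and fold 3.88 at 23041 bp upstream (chromosome 18, 59871883 to 59876955). For BAX, BAK1 and BBC3 the highest fold of any H3K4me1 peak was 2.91, 2.77 and 2.33, below the 3.81 of BCL2A1.

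**Figure D3:**
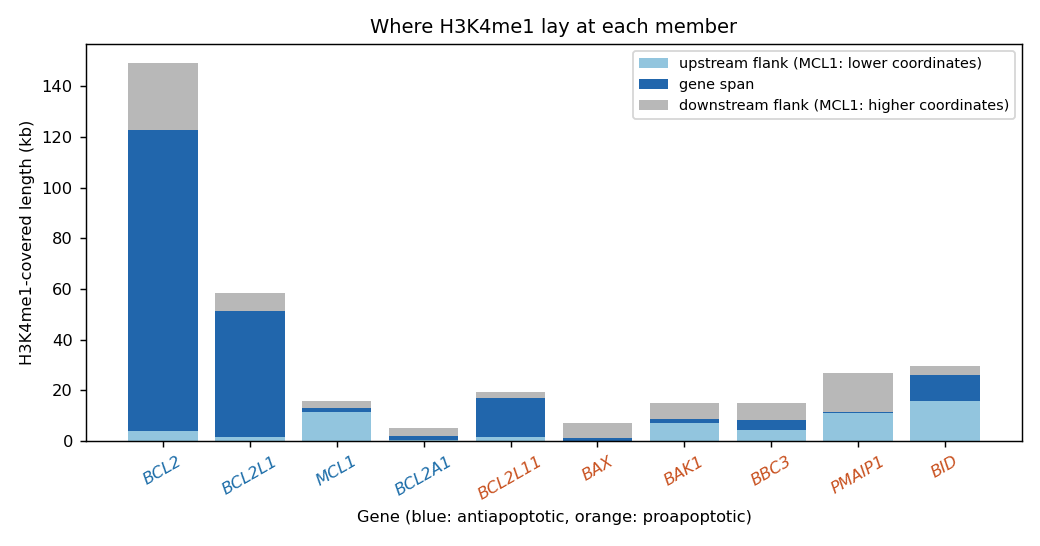
Length covered by H3K4me1 (kb) at each member, stacked as the 50-kb upstream flank, the gene span and the 50-kb downstream flank (for MCL1, the sides of lower and higher coordinates). The gene span holds most of the H3K4me1 of BCL2, BCL2L1 and BCL2L11, and almost none of that of PMAIP1.

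H3K4me1 lay beside the start domains rather than over them. Within 2 kb of its edges, the domain of BCL2, BAK1, PMAIP1 and BID had H3K4me1 on both sides and that of BCL2L1, MCL1, BCL2L11 and BAX on 1 side. Of the 8976 domains at protein-coding starts, 58.6% had it on both sides, 31.05% on 1 side and 10.38% on neither. For BCL2L1, BCL2L11 and BAX the marked side was downstream, and BCL2L1 had all 2000 bp of it covered. Inside the 8 domains H3K4me1 covered 0 bp at BCL2L11 and BAX, and at most 492 bp, at PMAIP1.

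CpG number was then set beside H3K4me3 at the listed starts, over windows of 300 bases from 250 before to 50 after the start. The median over 22199 windows of protein-coding genes was 21 CpGs (quartiles 7 and 31). The windows of PMAIP1 held 42, BCL2L11 39, BAX 38 and BCL2 31, and at these genes at least 294 of the 300 bases lay under H3K4me3. BCL2A1 had 2 CpGs and BBC3 5, with 0 bases under H3K4me3 at either, and 285 bases of the BCL2A1 window lay under H3K4me1 at a fold of 1.77. BAK1 had 7 CpGs and 76 bases under H3K4me3. BCL2L1 had 16 and 20 CpGs at its 2 starts, with 300 and 122 bases under H3K4me3.

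The BID starts did not line up by CpG number. Those with 29 and 31 CpGs lay wholly under H3K4me3, those with 33 and 37 CpGs had 13 and 39 bases under it, and that with 6 CpGs had 0 and 261 bases under H3K4me1 instead. The windows with 29 and 31 CpGs overlap each other, as do the other 3, and so share sequence.

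**Figure D4:**
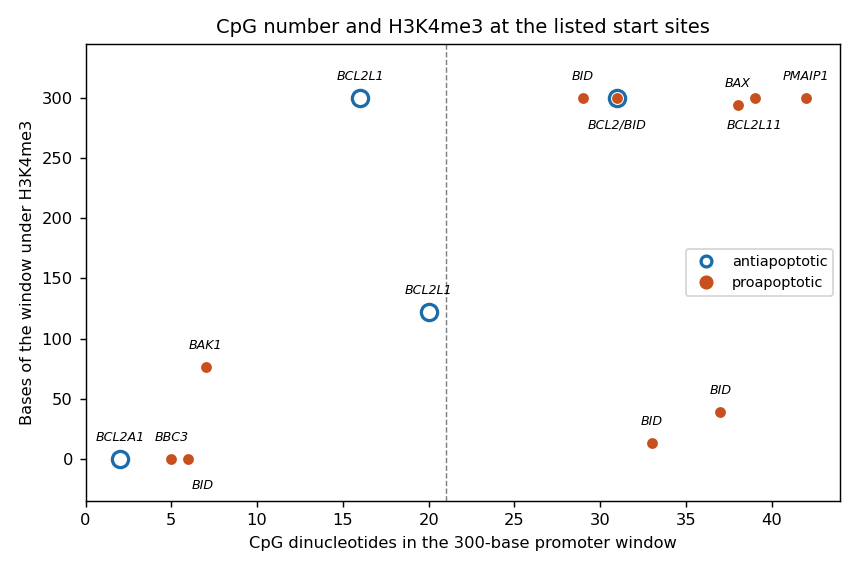
CpG dinucleotides (x axis) and bases under H3K4me3 (y axis) in the 300-base window at each of the 14 listed start sites of 9 members; open blue circles are antiapoptotic, filled orange ones proapoptotic, and the dashed line is the median of 21 CpGs over all protein-coding promoter windows. The BCL2A1, BBC3 and BAK1 windows lie at the lower left with 2 to 7 CpGs and at most 76 bases under H3K4me3.

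A few short motifs, chosen after the promoters had been seen, were looked for in these windows on both strands. TATAAA, the TATA box letters, occurred at BCL2A1 and at the upstream start of BCL2L1, and in 9.47% of all windows. GGGCGG, a GC box that SP1 binds, occurred at PMAIP1, BAX, BAK1, BCL2L11, 4 of the 5 BID starts and the downstream start of BCL2L1, and in 56.3% of all windows. CCAAT occurred at BCL2L11, BAX, BAK1 and BBC3 and in 34.7% of all windows. GTAAACA, the letters that FOXO factors bind, occurred at BCL2L11, known as a FOXO3 target, and in 2.85% of all windows. These are matches of letters, with no binding measured.

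The other genes of the family were described in the same way. Of 11 such genes 6 had H3K4me3 at the start (50.4% of all protein-coding genes), BAD, BMF, BIK, BCL2L2, BCL2L12 and BCL2L13, with the longest domains at BCL2L12 (2.57 kb), BMF (2.46 kb) and BAD (2.06 kb). BCL2L10, BCL2L14, BCL2L15, BOK and HRK had none. H3K4me1 was at 7 starts (40.5% of all protein-coding genes). BMF, a BH3-only gene, had 69.3 kb of H3K4me1 or 57.3% of its window, a larger share than that of BCL2, at percentile 99.9. BMF was below BCL2 with only H3K4me1 peaks that touched no H3K4me3 peak, 15.8% against 38.0%, and with flanks of 100 kb, 35.6% against 39.8%. It stayed above BCL2 at a −log10 q of at least 3 (55.7% against 23.7%) and in the upper 50% by fold (57.3% against 32.0%). The same held with the H3K4me1 list cut to the size of the H3K4me3 list (12.4% against 6.53%). BMF was also higher with flanks of 20 kb (74.1% against 56.8%) and within 50 kb of the start (52.9% against 38.2%). BCL2L10 had 28.4%, and BAD, whose product is a BH3-only sensor of growth factor signals, had 24.4%. Of the BAD span itself 7.23% was covered, and with flanks of 20 kb the BAD share was 12.0%.

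With BCL2L2 and BCL2L10 added to the antiapoptotic side and BAD, BIK, BMF, HRK and BOK to the proapoptotic side, a comparison added after the values were seen, 4 of 6 antiapoptotic and 8 of 11 proapoptotic genes had H3K4me3 at the start. The median H3K4me1 length was then 22.6 kb on the antiapoptotic and 19.3 kb on the proapoptotic side, and the median share 21.8% on the antiapoptotic and 13.8% on the proapoptotic side. The difference in length was 3.32 kb, against 20.0 kb over the 10 members, and that in share was 8.01 points.

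Downstream of the family, all 26 genes of a list of the mitochondrial pathway and its regulators had H3K4me3 at the start (50.4% of all protein-coding genes) and 18 had H3K4me1 (40.5%). The longest domains were at CASP8, the caspase that cleaves BID (4.94 kb), CASP9, the caspase of the apoptosome (3.77 kb), and HUWE1, a ubiquitin ligase for MCL1 (3.74 kb). H3K4me3 peaks covered 2.94 kb in the whole CASP9 window, so its domain included a merged gap. The greatest lengths of H3K4me1 were at VDAC1, a channel of the outer mitochondrial membrane (103 kb, 42.6% of the window), FOXO3, a transcription factor (55.0 kb, 24.5%), and CASP8 (37.6 kb, 24.4%). By share of the window BIRC5, which encodes survivin, was second to VDAC1 with 28.8%, while 12.3% of the BIRC5 span itself was covered. The VDAC1 window holds the whole span of the T-lineage marker TCF7, in which 30.4 of its 103 kb lay. The window of CYCS, the cytochrome c gene, held no H3K4me1 peak. The list's median start domain was 2.26 kb and its median H3K4me1 share 5.59%, against 2.51 kb and 14.45% over the 10 members. Over all protein-coding genes the medians were 0.257 kb and 3.98%.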

How the data were processed

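The authors called peaks with MACS2 2.1.0.20150731 in broad mode against the input library, with q limits of 0.1 for broad and 0.05 for strong regions, 1 tag kept per position and a local background from 1000 and 10000 bp, per the file headers. The build was GRCh38, per the submitters' processing notes. The deposited tables gave per peak a pileup (coverage signal), a fold over the local background (a ratio) and the −log10 of q, all means over the region. STAR was the aligner named in the header paths, and its version is not given in the sources used here. Input DNA entered only through the caller.

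Peak lengths were clipped to each gene's RefSeq span plus 50 kb each side, and overlap began at 1 bp. A percentile is the share of 20037 protein-coding genes with a lower value, ties counted by their midpoint. Interval arithmetic was checked on simulated peaks (0 of 500 windows wrong, 200 of 200 planted genes recovered). Python 3.11.15, pandas 2.3.3 and numpy 2.4.6 were used. The members, lists and thresholds were chosen with earlier results of these data known. The text names all 10 members, their start, longest and highest-fold peaks, and extremes of each list, of which 1 is not reported here. Alternatives varied the peak threshold, window, merging gap and the members included, and their effect is given in the closing section. Motifs were chosen after the promoters were seen. A region without a peak is one below the caller's limit, which depends on depth.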

Additional observations from a re-analysis of the deposited data

How the results depend on the processing

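No paired analysis was possible because each mark had 1 library. Differences are antiapoptotic minus proapoptotic medians, and no replicate error exists to judge their movement. The number of members with H3K4me3 at the start was 8, and 6 to 9 under its 5 alternatives. Leaving out 1 member at a time gave 2.1 to 3.09 kb for the start domain, 1.92 to 4.15 kb for H3K4me3 in the window, -1.25 to 41.2 kb for H3K4me1 length and 1.58 to 23.03 points for H3K4me1 share, the lowest values coming without BCL2 or without BCL2L1. The start domain difference of 2.60 kb was 0.7425 kb in the upper 50% of each list by fold, 1.74 kb with gaps of 3 kb merged, 2.855 kb over members with a domain and 0.8825 kb in the wider family, which was added after seeing the data. The H3K4me3 difference of 3.03 kb in the window was 2.86 kb at a −log10 q of at least 3, 2.25 kb in the upper 50% by fold, 3.95 and 5.35 kb with flanks of 20 and 100 kb, 2.20 kb within 50 kb of the start, 3.34 kb by peak midpoints and 2.65 kb in the wider family. The H3K4me1 differences, 20.0 kb and 12.3 points, were 29.9 kb and 12.9 points at that q, 25.7 kb and 14.95 points in the upper 50% by fold, and 12.0 kb and 5.70 points with as many H3K4me1 as H3K4me3 peaks. They were 21.2 kb and 24.45 points with flanks of 20 kb, 25.04 kb and 9.20 points with flanks of 100 kb, 10.37 kb and 10.37 points within 50 kb of the start, and 3.32 kb and 8.01 points in the wider family. They turned to -2.70 kb and -1.89 points with only H3K4me1 peaks that touched no H3K4me3 peak, a rule that by its construction removes a long peak for a short overlap. The causes of the other shifts were not tested. H3K4me1 peaks lay nearer the caller's limit, with a median −log10 q of 2.275 against 8.97 for H3K4me3 peaks, and the peak lists do not give the signal where no peak was called.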

Other observations

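Of the 24 H3K4me3 peaks in the members' windows, 7 lay at no protein-coding start used here, and 3 of these overlapped another gene. In BCL2L1, a peak of 1.14 kb at a fold of 4.35 lay at an end of the antisense lncRNA gene BCL2L1-AS1 (chromosome 20, 31675071 to 31676214) and wholly under H3K4me1. Beside MCL1, a peak of 1.24 kb at a fold of 4.91 lay over ADAMTSL4-AS1, 17244 bp from the end of MCL1 that holds H3K4me3. Upstream of BID, a peak of 1.22 kb at a fold of 3.17 lay at an end of LINC00528, 2590 bp from the most upstream BID start. The other 4 lay over no other annotated gene, and the longest of them was the 3.72-kb peak inside BCL2.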
